A study of Mus musculus with 10 samples.

Results

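Ion transport genes of the thick ascending limb, the distal convoluted tubule and the sodium-reabsorbing cells after it were examined in the kidney cortex of mice with aristolochic acid nephropathy (AAN). They were chosen by name, as a list of 40 genes with a role in these segments, and grouped by role. The list was drawn up with earlier results of these data known. All 40 were found among the 21792 genes of the deposited files, and all 40 passed the filter on low values that left 17129 genes for the test. The 10 libraries came from male wild-type C57BL/6 mice, 8 weeks old at the start by the methods, and each library was 1 mouse. The 4 sham mice (tags B607, B634, B636 and H249) received PBS, and the 6 AAN mice (tags A483, B614, B630, B639, B642 and B666) received 1 intraperitoneal injection of aristolochic acid, a plant nephrotoxin taken up by proximal tubules, at 5 mg/kg in PBS. The kidneys were taken at day 28, and the labels name the material as cells of the renal cortex. Both groups carried the same WT genotype. No batch was given, and sham and AAN mice shared no tag.

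The thick ascending limb takes up sodium, potassium and chloride across its apical membrane through Slc12a1 (NKCC2), returns potassium to the lumen through Kcnj1 (ROMK), and releases chloride across the basolateral membrane through channels that need the subunit Bsnd (barttin). The distal convoluted tubule takes up sodium and chloride through Slc12a3 (NCC), which is switched on by a chain of kinases from the WNKs to Stk39 (SPAK) and Oxsr1 (OSR1), and it sets the final excretion of magnesium and calcium. Further along, principal cells take up sodium through the epithelial sodium channel (ENaC) under the control of aldosterone. Sodium leaves all of these cells through the sodium pump. Umod (uromodulin) and Egf, a growth factor made as a membrane-bound precursor, are secreted by thick limb and distal cells into the urine, and both are followed as markers of these segments.

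Promoter sequences are shown for pairs of members that are expressed in the same segments but had different values in AAN mice, Umod with Egf and Slc12a3 with Pvalb, and for the members that rose. RefSeq held promoters of 30 of the 40 members, and the tables for GRCm38.p6 gave the 250 bases before each start, 5′ to 3′. Capitals mark TATAAA in Slc12a3 and, in each of them, the pair CG.
Umod, chr7:119479263-119479512, minus strand: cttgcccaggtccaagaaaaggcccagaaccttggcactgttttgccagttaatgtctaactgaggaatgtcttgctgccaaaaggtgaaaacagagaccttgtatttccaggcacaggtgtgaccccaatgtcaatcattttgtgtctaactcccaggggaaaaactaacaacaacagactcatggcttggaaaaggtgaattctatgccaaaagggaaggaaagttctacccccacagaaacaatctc
Egf, chr3:129755323-129755572, minus strand: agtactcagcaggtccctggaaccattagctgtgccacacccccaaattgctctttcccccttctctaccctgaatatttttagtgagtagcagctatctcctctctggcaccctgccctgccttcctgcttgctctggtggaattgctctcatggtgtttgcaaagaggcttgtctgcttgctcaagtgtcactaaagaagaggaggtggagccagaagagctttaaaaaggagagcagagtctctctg
Slc12a3, chr8:94328958-94329207, plus strand: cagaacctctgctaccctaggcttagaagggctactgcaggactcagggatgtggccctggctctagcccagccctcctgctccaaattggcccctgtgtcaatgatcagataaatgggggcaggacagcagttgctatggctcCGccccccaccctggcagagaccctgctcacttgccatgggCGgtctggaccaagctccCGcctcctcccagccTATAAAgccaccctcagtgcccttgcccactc
Pvalb, chr15:78206401-78206650, minus strand: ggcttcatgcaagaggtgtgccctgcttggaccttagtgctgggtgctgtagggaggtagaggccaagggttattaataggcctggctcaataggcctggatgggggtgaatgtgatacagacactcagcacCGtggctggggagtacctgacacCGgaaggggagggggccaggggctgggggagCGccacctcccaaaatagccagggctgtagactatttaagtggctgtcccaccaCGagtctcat
Slc12a4, chr8:105966116-105966365, minus strand: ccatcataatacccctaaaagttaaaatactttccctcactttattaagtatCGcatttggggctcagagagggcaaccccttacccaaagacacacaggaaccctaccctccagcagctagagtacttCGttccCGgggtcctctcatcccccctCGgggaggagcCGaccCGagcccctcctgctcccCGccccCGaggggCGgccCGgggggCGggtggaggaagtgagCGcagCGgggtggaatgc
Atp2b1, chr10:98914392-98914641, plus strand: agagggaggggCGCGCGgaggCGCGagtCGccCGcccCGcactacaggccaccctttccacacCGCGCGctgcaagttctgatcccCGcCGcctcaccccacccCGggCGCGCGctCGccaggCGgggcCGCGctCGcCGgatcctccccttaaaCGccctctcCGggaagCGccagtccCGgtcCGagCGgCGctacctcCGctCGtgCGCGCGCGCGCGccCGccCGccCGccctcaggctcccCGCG

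The TATA box TATAAA, searched on the sense strand, lay 32 bases before the start of Slc12a3 and in 7.59% of 32851 promoters of the same length, and the other members that held it were Trpv5, Kcnj16 and Sgk1. TCAAGGTCA, the site of estrogen-related receptors, was found on either strand in Sgk1 alone among the members and in 0.387% of all promoters. Of the 8 members that differed between the groups, 5 had a promoter in the tables, Egf, Pvalb, Kcnj15, Slc12a4 and Atp2b1, and in the promoters nearest to their annotated starts 0 of the 5 held any of these letters. No 2 of the motifs overlapped in the promoter nearest to a member's start. The pair CG was counted 0 times in Egf, 1 time in Kcnj15 and 4 times in Pvalb, which were lower in AAN mice, and 13 times in Slc12a4 and 43 times in Atp2b1, which were higher. The median over all promoters was 6. Members that were not called covered the whole range, from 0 in Umod to 43 in Stk39.

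Values were fragments per kilobase of gene model per M fragments (FPKM), the authors' own unit, with no scaling between mice added. Depth recovered from the files was 15.7 to 17.4 M fragments in sham and 13.3 to 16.5 M fragments in AAN libraries. Genes of the mitochondrial genome took 39.5% to 61.4% of all FPKM in the sham and 21.4% to 55.03% in AAN mice, and the median log2 fold change (AAN minus sham) of all 17129 genes tested was 0.75. The median of ratios, a rescaling that sets the typical gene equal between mice, brought it to 0.066. Scaling to the same total of all genes but these left it at 0.77. Values below are as deposited unless the rescaling is named. The libraries of sham B607 and AAN B614 stood apart from their groups. For this, each mouse was set against the mean of its own group, itself included. In genes with over 6000 exonic bases against genes with under 1500, the median log2 level was then higher by 0.59 in B607 and by 0.49 in B614, against -0.26 to 0.021 in the other 8 mice.

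The members differed between these 2 mice and the rest. B607 was the highest of the 4 sham mice in 28 of 40 members and B614 the highest of the 6 AAN mice in 33 of 40. The same counts over all genes were not made, so they are not shown to be particular to the members. The factor that the median of ratios divides by was highest in B607 among sham mice (0.85 against 0.61 to 0.79). In B614 it was 1.25, within the 1.12 to 1.34 of AAN mice. On the log2(FPKM + 0.1) scale the median member was 0.82 higher in B607 than the median of the other 3 sham mice and 1.20 higher in B614 than the median of the other 5 AAN mice. The greatest gaps were in Slc8a1 for B607, with 23.3 FPKM against 0.946 to 2.71, and in Egf for B614, with 71.9 FPKM against 1.46 to 3.996. Slc8a1 and Egf are long genes, with 18807 and 11275 exonic bases. Among the 12 members with under 3500 exonic bases, B614 was the highest AAN mouse in all 12 and B607 the highest sham mouse in 6. The shortest, Pvalb, was lowest in B607 among sham mice and highest in B614 among AAN mice. Values without 1 of these mice are given below where leaving it out changed a call, and for several other members that stood out in it.

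**Figure D1:**
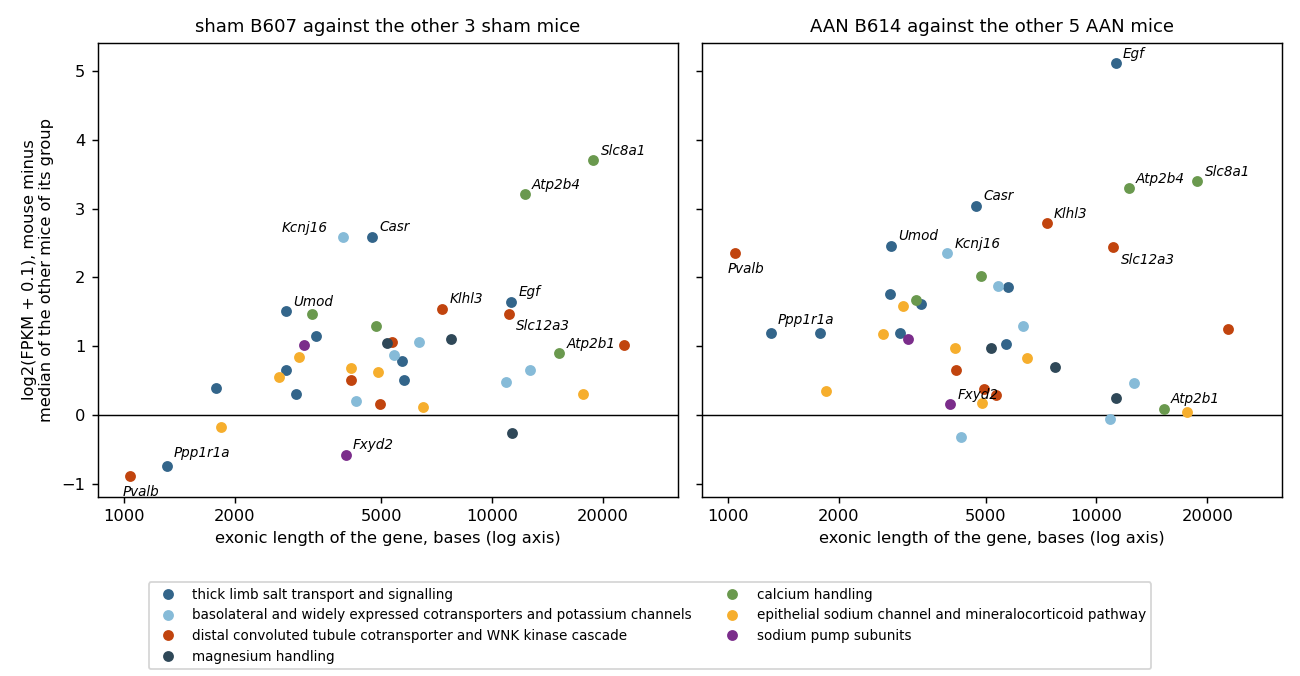
Level of each of the 40 members in sham B607 (left) and AAN B614 (right) on the log2(FPKM + 0.1) scale, minus the median of the other mice of its group, against exonic length in bases on a log axis, with colours for the groups of members. Most points lie above 0, with medians of 0.82 and 1.20, and Egf in B614 is at 5.11.

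Whether the transport genes as a set were lower or higher in AAN mice was asked first. A gene was called when its limma adjusted p was at most 0.05 and its change at least 2-fold. Of the 40 members, 2 rose, Slc12a4 and Atp2b1, against 35.8% of all genes tested. Another 6 fell, Pvalb, Egf, Kcnj15, Ppp1r1b, Ppp1r1a and Fxyd2, against 3.43% of all genes. The other 32 did not pass, and they included Slc12a1, Slc12a3, Umod, Calb1 and all 3 subunits of ENaC. The median log2 fold change of the members was 0.032, below the 0.75 of all genes, and 34 of the 40 lay below that median. After the median of ratios 1 member was higher (Slc12a4, against 19.1% of genes) and 11 were lower, against 10.5% of genes: Scnn1a, Bsnd, Umod, Kcnj10 and Kcnj1 were added to the 6. The median member was then at -0.71, with 0.066 for all genes. Quantile normalization called 1 member higher, against 13.0% of genes, and 6 lower, against 12.6%. Among these 6 Bsnd took the place of Fxyd2. The same FPKM total in every mouse called 6 higher, with Stk39, Oxsr1, Trpm6 and Trpv5 added (against 51.6% of genes), and 3 lower (against 1.94%). With the mitochondrial genes left out of that total, 2 members were higher and 6 lower, against 36.6% and 3.24% of genes. Slc12a4, Pvalb, Kcnj15 and Egf were called in the same direction under each of these scalings. In 3 members (Slc12a4, Stk39 and Atp2b1) every AAN mouse lay above every sham mouse, against 40.3% of all genes. In 2 (Pvalb and Fxyd2) every AAN mouse lay below every sham mouse, against 3.25% of all genes. For 15 of the 32 members not called, the 95% interval of the log2 fold change stayed within 2-fold in either direction. For the other 17 it did not, and it held values past 2-fold.

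**Figure D2:**
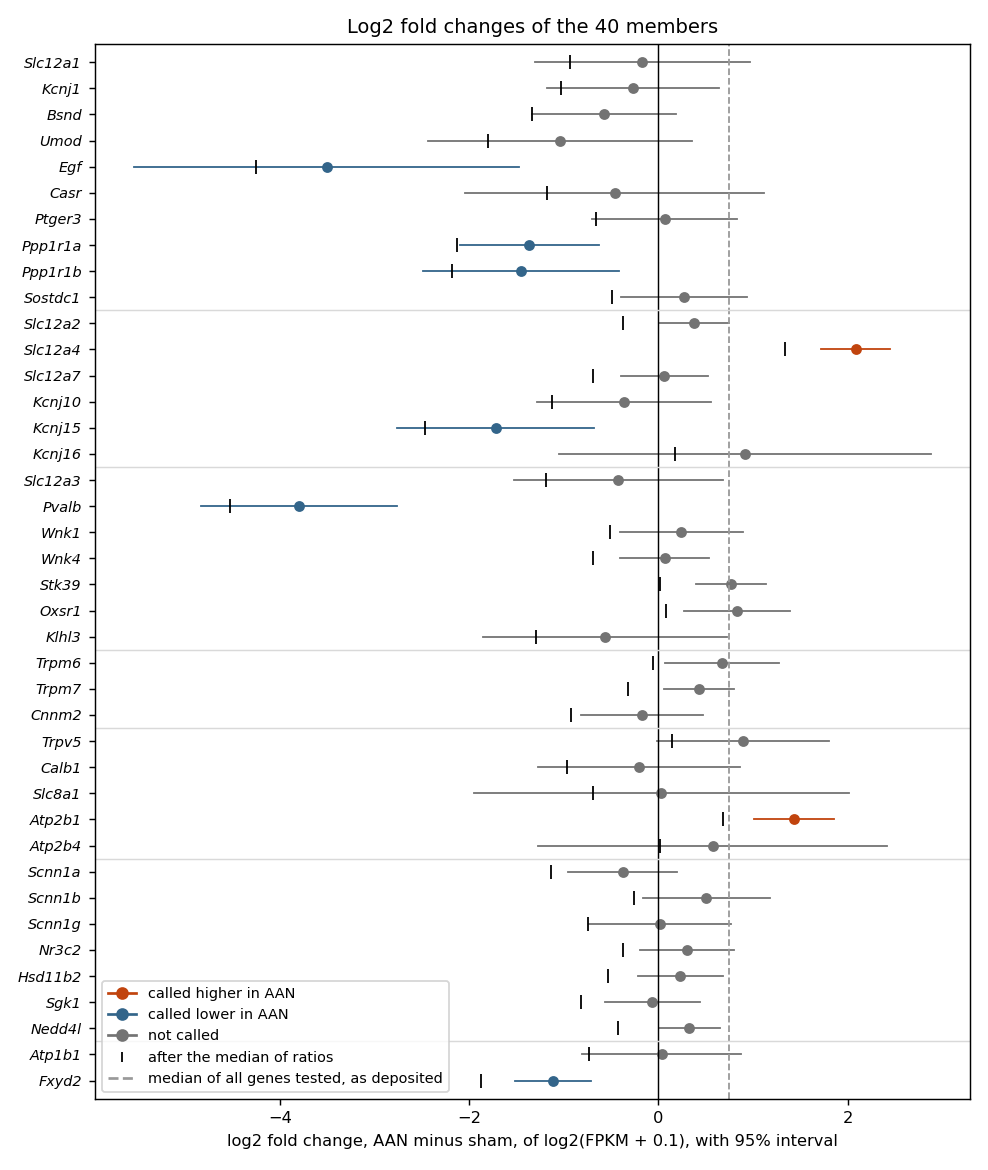
Log2 fold change (AAN minus sham) of the 40 members in the order of their groups, with 95% intervals as lines; colours mark called members, black ticks the values after the median of ratios, and the dashed line the median of all genes tested (0.75). Slc12a4 and Atp2b1 lie to the right of it, and 34 of 40 members lie to its left.

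**Figure D3:**
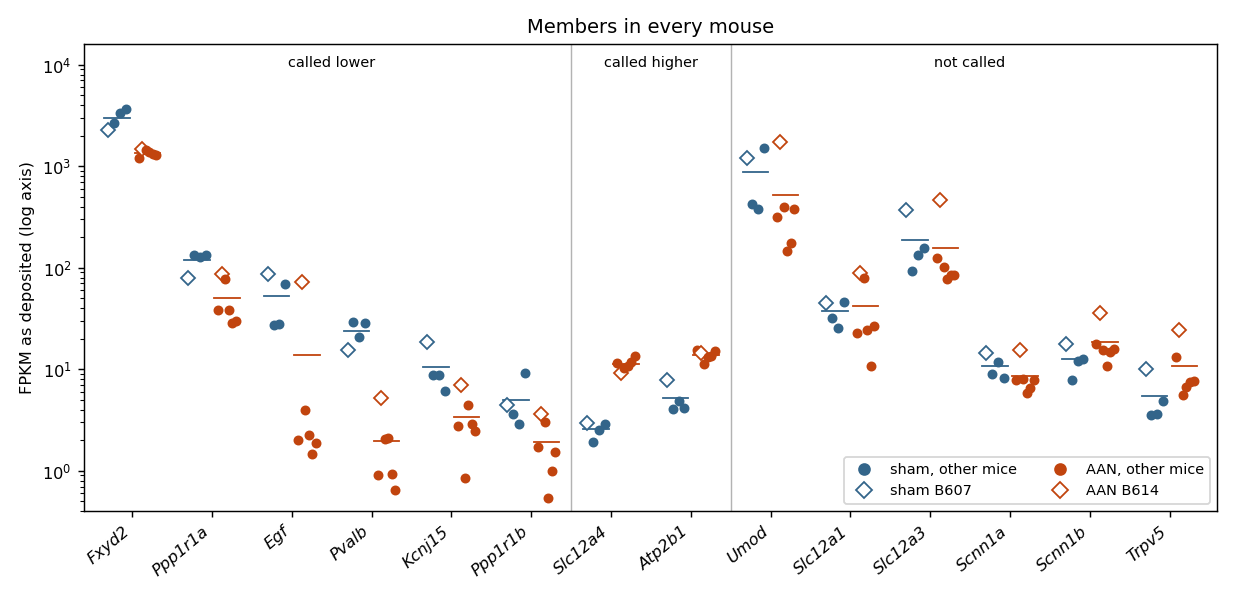
FPKM on a log axis in each of the 4 sham and 6 AAN mice for the 8 called members and 6 others, with lines at the group means and open diamonds for sham B607 and AAN B614. In Egf the AAN mouse B614 (71.9 FPKM) sits among the sham mice, and in Pvalb, Fxyd2, Slc12a4 and Atp2b1 the groups do not overlap.

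Of the 10 thick limb members, 3 fell (against 3.43% of all genes) and 7 were not called, and all 10 lay below the median of all genes. Their median log2 fold change was -0.52, and -1.26 after the median of ratios, where 6 of the 10 were called lower (against 10.5% of all genes). Egf (chr3:129677565-129755316, minus strand, GRCm38), the secreted growth factor precursor, was at 86.9, 27.1, 27.6 and 69.3 FPKM in sham mice B607, B634, B636 and H249. In AAN mice A483, B614, B630, B639, B642 and B666 it was at 1.99, 71.9, 3.996, 2.26, 1.46 and 1.87 FPKM, in the same order as all AAN values below. In all, 5 AAN mice were below every sham mouse, and B614 was at the level of the highest sham mice. The log2 fold change was -3.51 (SE 0.93, limma adjusted p = 0.00643), and -4.34 without B614 (adjusted p = 4.83e-06). Egf shares part of its locus with the listed transcript 6330410L21Rik, and how shared fragments were counted is not given in the sources used here.

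Ppp1r1a, an inhibitor of protein phosphatase 1 that is enriched in the thick limb, was at 79.7, 134, 127 and 133 in sham mice and 38.02, 87.3, 77.02, 38.2, 28.7 and 29.6 FPKM in AAN mice (chr15:103530279-103538003, minus strand). Of the 6 AAN mice, 5 were below every sham mouse, and B614 lay above the lowest sham mouse, B607. The log2 fold change was -1.36 (SE 0.34, adjusted p = 0.00419), and after scaling to the same total it was just short of 2-fold. Its relative Ppp1r1b (DARPP-32, chr11:98348404-98357796, plus strand) was lower in level, at 4.49, 3.61, 2.88 and 9.09 in sham mice and 1.71, 3.62, 3.03, 0.539, 0.997 and 1.52 FPKM in AAN mice. The groups overlapped in B614 and B630. Its log2 fold change of -1.45 (SE 0.48, adjusted p = 0.0196) rested on H249, the highest sham mouse: without it the value was -1.12 (adjusted p = 0.0711), and among mice with B tags alone it was -1.14 (adjusted p = 0.0975).

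The transporters of the thick limb itself were not called as deposited, and their levels follow as means ± SD over 4 sham and 6 AAN mice. Slc12a1, the NKCC2 cotransporter, was at 37.1 ± 10.3 (sham) and 41.7 ± 32.7 FPKM (AAN), a log2 fold change of -0.17 (95% interval -1.31 to 0.97). That value was -0.93 after the median of ratios (limma adjusted p = 0.184), -0.44 after quantile normalization and 0.19 after scaling to the same total. AAN mice ran from 10.7 to 87.8 FPKM for this gene, around the sham range of 25.3 to 46.1 FPKM. B614 and B630 were above every sham mouse, and 3 AAN mice were below. Kcnj1, the apical potassium channel, was at 54.2 ± 22.8 (sham) and 49.2 ± 33.8 FPKM (AAN) (-0.27, interval -1.18 to 0.64), and -1.03 after the median of ratios (adjusted p = 0.0487). Bsnd, the chloride channel subunit, was at 22.3 ± 6.22 (sham) and 16.6 ± 11.3 FPKM (AAN) (-0.58, interval -1.34 to 0.18). In Bsnd 5 AAN mice were below every sham mouse and B614 above them all. Its value was -1.34 after the median of ratios (limma adjusted p = 0.00825) and -1.03 after quantile normalization (limma adjusted p = 0.0448). Under both of these rescalings Bsnd was called lower. As deposited, Bsnd was at -0.86 without B614 (adjusted p = 0.00246), short of 2-fold. Umod spread widely, with 376 to 1523 in sham mice and 147 to 1719 FPKM in AAN mice, with B614 the highest of all. Its log2 fold change was -1.04 (SE 0.64, adjusted p = 0.176), -1.49 without B614 (adjusted p = 0.0175) and -1.25 without B607 and B614 (adjusted p = 0.0489), so that Umod was called lower when B614 was left out.

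Casr, the calcium-sensing receptor that restrains thick limb transport, was at 3.63 ± 3.58 (sham) and 3.21 ± 4.62 FPKM (AAN) (-0.46, interval -2.04 to 1.12). Its highest values were 8.85 FPKM in B607 and 12.6 FPKM in B614, and the other 8 mice lay between 0.744 and 3.02 FPKM. Casr was at a log2 fold change of 0.11 without B607, -0.998 without B614 and -0.43 without both. With all mice it was at -1.18 after the median of ratios (limma adjusted p = 0.193). Ptger3, a prostaglandin E2 receptor, was at 2.68 ± 1.21 (sham) and 2.84 ± 1.29 FPKM (AAN). Sostdc1, a secreted antagonist of BMP and Wnt signals found in these segments, was at 27.5 ± 8.20 (sham) and 34.4 ± 14.6 FPKM (AAN). Their log2 fold changes were 0.068 and 0.27, both turned below 0 by the median of ratios (-0.66 and -0.49), and both intervals stayed within 2-fold.

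Among the 6 basolateral and widely expressed cotransporters and potassium channels, 1 rose (against 35.8% of all genes), 1 fell (against 3.43%) and 4 were not called. Slc12a4 (KCC1), the potassium chloride cotransporter that most cells use to regulate volume, was at 2.94, 1.93, 2.52 and 2.92 in sham mice and 11.5, 9.22, 10.4, 10.8, 11.8 and 13.4 FPKM in AAN mice (chr8:105943590-105966097, minus strand). All 6 AAN mice were above all 4 sham mice, and B614 was the lowest of them. The log2 fold change of 2.09 (SE 0.17, adjusted p = 9.58e-07) was 1.34 after the median of ratios (adjusted p = 5.08e-06), and this gene was called higher in every one of the 21 alternatives. Kcnj15 (Kir4.2, chr16:95257558-95300260, plus strand), a basolateral potassium channel, was at 18.6, 8.82, 8.81 and 6.05 in sham mice and 2.78, 6.94, 0.858, 4.47, 2.90 and 2.47 FPKM in AAN mice. Of the AAN mice, 5 were below every sham mouse, and B614 lay above the lowest of them. Its log2 fold change was -1.72 (SE 0.48, adjusted p = 0.00821), and it too was called in every one of the 21 alternatives. In bulk cortex the tubule segment in which Kcnj15 fell cannot be told apart.

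The other potassium channels of this family were not called. Kcnj10 (Kir4.1), the basolateral channel of the distal convoluted tubule, was at 13.6 ± 5.51 (sham) and 11.7 ± 8.76 FPKM (AAN) (-0.37, and -1.12 after the median of ratios, adjusted p = 0.0336), and -0.67 without B614 (adjusted p = 0.0674). Its partner Kcnj16 (Kir5.1) was at 4.06 ± 4.23 (sham) and 10.2 ± 10.3 FPKM (AAN) and varied 30.3-fold among AAN mice, from 0.906 to 27.4 FPKM. The 3 AAN mice B614, B630 and B666 were above every sham mouse for Kcnj16, and the interval of its log2 fold change was wide, -1.05 to 2.88. Slc12a2 (NKCC1), the widely expressed cotransporter, was at 4.83 ± 0.915 (sham) and 6.29 ± 0.949 FPKM (AAN), and Slc12a7 (KCC4) at 25.8 ± 8.20 (sham) and 26.3 ± 4.54 FPKM (AAN). Their log2 fold changes of 0.38 and 0.064 became -0.37 and -0.70 after the median of ratios.

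Of the 7 members of the distal convoluted tubule and its kinase cascade, 1 fell (against 3.43% of all genes) and 6 were not called. Pvalb (parvalbumin, chr15:78191114-78206400, minus strand), a calcium-binding protein of the early distal convoluted tubule, was at 15.5, 29.5, 20.7 and 28.7 in sham mice and 0.900, 5.21, 2.06, 2.12, 0.939 and 0.654 FPKM in AAN mice. Every AAN mouse was below every sham mouse, and the ratio of the group means was 11.9. The log2 fold change was -3.80 (SE 0.48, adjusted p = 3.46e-05), the greatest of the members and called in every one of the 21 alternatives. Counted at most, the AAN level was about 31.6 fragments a mouse and the sham level 402. Slc12a3, the thiazide-sensitive NCC cotransporter of the same cells, was at 369, 93.7, 133 and 156 in sham mice and 124, 465, 102, 77.9, 84.7 and 85.8 FPKM in AAN mice. The ranges overlapped, with the highest sham mouse B607 and the highest AAN mouse B614 each at over 2 times the next mouse of their group. Its log2 fold change was -0.42 (interval -1.53 to 0.69, adjusted p = 0.483), and -0.81 without B614 (adjusted p = 0.0558). With all mice it was -1.18 after the median of ratios (limma adjusted p = 0.0663).

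The kinases Stk39 and Oxsr1 were at low levels. Stk39 (SPAK) was at 2.81 ± 0.508 (sham) and 4.82 ± 0.736 FPKM (AAN), and all 6 AAN mice were above all 4 sham mice, with a log2 fold change of 0.76 (SE 0.17, adjusted p = 0.00217) that was short of 2-fold. Oxsr1 (OSR1) was at 4.64 ± 2.08 (sham) and 7.91 ± 1.47 FPKM (AAN) (0.83, SE 0.26, adjusted p = 0.0144), and 1.04 without B607 and B614 and 1.09 without B607, where it passed as higher. Both were close to the 0.75 of the median gene, and after the median of ratios the log2 fold changes were 0.021 for Stk39 and 0.084 for Oxsr1. Oxsr1 overlaps the listed gene Slc22a14. Wnk1 and Wnk4, the kinases that activate this pair, were at 7.12 ± 2.85 and 22.3 ± 4.76 in sham mice and at 8.57 ± 3.96 and 23.6 ± 6.22 FPKM in AAN mice. Their log2 fold changes of 0.24 and 0.066 became -0.51 and -0.69 after the median of ratios, and both intervals as deposited stayed within 2-fold. Klhl3, the adaptor that hands WNK kinases to a ubiquitin ligase, was at 4.20 ± 2.95 (sham) and 3.57 ± 4.53 FPKM (AAN). Leaving out B614, where it was at 12.8 FPKM, moved its log2 fold change from -0.56 to -1.04 (adjusted p = 0.0256), a call. Without B607 too it was not called. With all mice Klhl3 was at -1.30 after the median of ratios (limma adjusted p = 0.0846).

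Of the 3 magnesium members 0 were called by limma, where 35.8% of all genes rose and 3.43% fell. For 2 of the members, Trpm6 and Trpm7, the unadjusted limma p was under 0.05. Trpm6, the apical magnesium channel of the distal convoluted tubule, was at 2.46 ± 1.19 (sham) and 3.83 ± 1.09 FPKM (AAN) (0.68, SE 0.27). Its widely expressed relative Trpm7 was at 5.38 ± 0.467 (sham) and 7.36 ± 1.34 FPKM (AAN) (0.43, SE 0.17), and 5 of 6 AAN mice were above every sham mouse. Both passed the limit on the adjusted p, at 0.05 and 0.0444, but not the limit on the fold. Both turned below 0 after the median of ratios, at -0.060 and -0.32. Cnnm2, a basolateral membrane protein needed for magnesium reabsorption, was at 10.98 ± 4.68 (sham) and 9.63 ± 3.69 FPKM (AAN). Its log2 fold change was -0.17 as deposited and -0.92 after the median of ratios (adjusted p = 0.00977), and 0.19 after scaling to the same total.

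Of the 5 calcium members, 1 rose (against 35.8% of all genes) and 4 were not called. Atp2b1 (PMCA1, chr10:98914406-99026143, plus strand), the plasma membrane calcium pump found in most cells, was at 7.84, 4.08, 4.86 and 4.14 in sham mice and 15.6, 14.4, 11.3, 13.2, 13.5 and 15.02 FPKM in AAN mice. All 6 AAN mice were above all 4 sham mice and close together. The log2 fold change was 1.43 (SE 0.19, adjusted p = 6.4e-05). After the median of ratios it was 0.68 (adjusted p = 0.00268) and after quantile normalization 0.77, still above 0 but under 2-fold. Trpv5, the apical calcium channel, was at 5.51 ± 3.12 (sham) and 10.8 ± 7.06 FPKM (AAN), with a log2 fold change of 0.90 (SE 0.42, adjusted p = 0.0802). The value was 1.23 without B607, the highest sham mouse (adjusted p = 0.0212), and 0.15 after the median of ratios. Calb1 (calbindin), the protein that carries calcium across distal cells, was at 60.3 ± 29.6 (sham) and 60.1 ± 53.7 FPKM (AAN), and its log2 fold change of -0.21 had an interval of -1.27 to 0.86 and was 0.069 without B607 and -0.57 without B614. With all mice Calb1 was at -0.97 after the median of ratios (limma adjusted p = 0.109).

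The sodium calcium exchanger Slc8a1 and the pump Atp2b4 (PMCA4) move calcium out at the basolateral side. Slc8a1 stood apart in B607 and B614, and Atp2b4 in these 2 mice and A483, by more than the groups differed. Slc8a1 was at 23.3 FPKM in sham B607 and 26.5 FPKM in AAN B614, and at 0.946 to 2.86 FPKM in the other 8 mice. Atp2b4 was at 2.10 and 3.45 FPKM in these mice and at 2.12 FPKM in A483, and at 0.130 to 0.315 FPKM in the other 7. Their log2 fold changes of 0.031 and 0.57 had SEs of 0.91 and 0.84, and the first turned below 0 after the median of ratios (-0.70). Slc8a1 was at 0.97 without B607, -0.56 without B614 and 0.38 without both, and Atp2b4 at 1.31, 0.11 and 0.84 in the same order.

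Of the 7 members of the ENaC and mineralocorticoid pathway, 0 were called by limma as deposited, where 35.8% of all genes rose and 3.43% fell. Of these members, 1 (Nedd4l) had an unadjusted limma p under 0.05, and all 7 lay below the median of all genes. The pore subunit Scnn1a was at 14.5, 8.98, 11.8 and 8.12 in sham mice and 7.81, 15.4, 8.05, 5.80, 6.50 and 7.77 FPKM in AAN mice. For this subunit 5 AAN mice were below every sham mouse and B614 was above them all. Its log2 fold change was -0.38 (SE 0.26, adjusted p = 0.23), -0.56 without B614 (adjusted p = 0.0252, short of 2-fold), and -1.13 after the median of ratios (adjusted p = 0.00355), where it was called lower. Scnn1b was at 17.8, 7.78, 12.04 and 12.6 in sham mice and 17.7, 35.4, 15.6, 10.8, 14.9 and 15.98 FPKM in AAN mice, with a log2 fold change of 0.50 (SE 0.31, adjusted p = 0.172) that became -0.25 after the median of ratios. Its locus overlaps the listed gene Cog7. Scnn1g was at 17.7 ± 6.53 (sham) and 18.9 ± 10.8 FPKM (AAN) (0.016, interval -0.74 to 0.77, and -0.74 after the median of ratios).

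The regulators were not called, as deposited or under any of the rescalings. Nr3c2, the mineralocorticoid receptor, was at 0.698 ± 0.0670 (sham) and 0.911 ± 0.297 FPKM (AAN). Hsd11b2, the enzyme that inactivates glucocorticoids and so keeps this receptor for aldosterone, was at 125 ± 21.1 (sham) and 148 ± 32.1 FPKM (AAN). Sgk1, the kinase induced by aldosterone, was at 5.75 ± 1.35 (sham) and 5.56 ± 1.43 FPKM (AAN), and Nedd4l, the ubiquitin ligase that removes ENaC from the membrane, at 9.48 ± 1.54 (sham) and 11.8 ± 0.989 FPKM (AAN). Their log2 fold changes lay between -0.067 for Sgk1 and 0.33 for Nedd4l, and all 4 intervals stayed within 2-fold. After the median of ratios all 4 were below 0, from -0.82 for Sgk1 to -0.38 for Nr3c2. Of these, Sgk1 (limma adjusted p = 0.00818), Nedd4l (0.0097) and Hsd11b2 (0.0395) passed the limit on the adjusted p but not that on the fold. Nr3c2 was at -0.92 after quantile normalization (limma adjusted p = 0.00795), also short of 2-fold.

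Of the 2 sodium pump subunits listed, Fxyd2 fell and Atp1b1 was not called. Fxyd2, the gamma subunit that tunes the pump in proximal and distal cells (chr9:45399669-45410278, plus strand), had the highest level of all members. It was at 2269, 2646, 3365 and 3634 in sham mice and 1201, 1478, 1458, 1382, 1323 and 1292 FPKM in AAN mice. Every AAN mouse was below every sham mouse, and the AAN mice lay within 1.23-fold of each other. The log2 fold change of -1.11 (SE 0.19, adjusted p = 0.000299) was -1.88 after the median of ratios. It stayed below 0 but was short of 2-fold after quantile normalization (-0.78), after scaling to the same total (-0.75) and among mice with B tags alone (-0.98). Atp1b1, a beta subunit of the pump, was at 341 ± 135 (sham) and 368 ± 196 FPKM (AAN) (0.033, interval -0.81 to 0.88, and -0.73 after the median of ratios). Atp1b1 overlaps the listed gene Nme7.

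Scaling between mice drops out when 2 members are compared within each mouse, so 17 pairs of members with related roles were compared as log2 differences and tested over the mice with an exact two-sided permutation test by the absolute difference (210 assignments, smallest possible p 0.00476), adjusted over the 17 pairs. The pairs had been chosen with earlier results of these data known, which the p-values do not allow for. By the test on the absolute difference 2 pairs passed an adjusted p of 0.05. With the smaller tail doubled instead, another form of the exact two-sided permutation test, the smallest possible p is 0.00952 and 0 of 17 passed (adjusted p = 0.054 for both pairs). Pvalb minus Slc12a3, which share the distal convoluted tubule, was -4.56, -1.66, -2.68 and -2.44 in sham and -6.95, -6.45, -5.55, -5.13, -6.35 and -6.83 in AAN mice. Each AAN mouse was below each sham mouse, B607 being the lowest sham mouse. The difference of -3.38 (SE 0.68, exact permutation p = 0.00476, adjusted p = 0.0405) is that of Pvalb relative to Slc12a3 and needs no scaling between mice. A gap between long and short genes, as in B607 and B614, does not drop out. Pvalb has 1041 exonic bases and Slc12a3 11119, and the part of length in this difference was not tested. Scnn1b minus Scnn1a was 0.29, -0.20, 0.028 and 0.63 in sham and 1.17, 1.19, 0.95, 0.89, 1.19 and 1.03 in AAN mice, again with no overlap. The ENaC beta subunit was higher relative to the alpha subunit by 0.88 (SE 0.19, exact permutation p = 0.00476, adjusted p = 0.0405), although neither gene was called alone. Both pairs sat at the smallest p the design allows. With any 1 mouse left out that smallest p is 0.00794 or 0.0119, and both pairs stayed past the limit without B614 (adjusted p = 0.0337) and missed it in the other 9 cases (adjusted p = 0.0506 to 0.0675). The differences themselves ran from -3.95 to -2.99 and from 0.75 to 1.03 over these 10 cases.

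Egf minus Umod, both secreted by the thick limb or the cells next to it, was -3.79, -3.96, -3.76 and -4.46 in sham and -7.23, -4.58, -6.60, -5.96, -6.83 and -7.60 in AAN mice. All 6 AAN mice were below all 4 sham mice, B614 included, with a difference of -2.47 (SE 0.47, exact permutation p = 0.00952, adjusted p = 0.054), which missed the limit. These genes differ in length too, with 11275 exonic bases in Egf and 2763 in Umod. Without B614 the 2 pairs Egf minus Umod and Trpm6 minus Slc12a3 passed as well (exact permutation, adjusted p = 0.0337 for each). The next pairs were Trpm6 minus Slc12a3 (1.10, SE 0.32, exact permutation p = 0.0333, adjusted p = 0.142) and Fxyd2 minus Atp1b1 (-1.15, SE 0.48, exact permutation p = 0.0429, adjusted p = 0.146). For Trpm6 minus Slc12a3, the channel and the cotransporter of the same cells, 5 of 6 AAN mice were above every sham mouse and B614 was not. Kcnj15 minus Kcnj16 differed by -2.63 with an SE of 1.05, and its AAN values ran from -3.94 to 2.18. Group means were close together for Kcnj1 minus Slc12a1 (-0.099, SE 0.40), Stk39 minus Oxsr1 (-0.069, SE 0.27) and Hsd11b2 minus Nr3c2 (-0.066, SE 0.19). For Kcnj1 minus Slc12a1 the AAN mice ran from -1.03 to 1.41, with 2 above and 2 below the sham range of 0.14 to 0.89. The adjusted p was over 0.05 in all 15 pairs that did not pass.

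**Figure D4:**
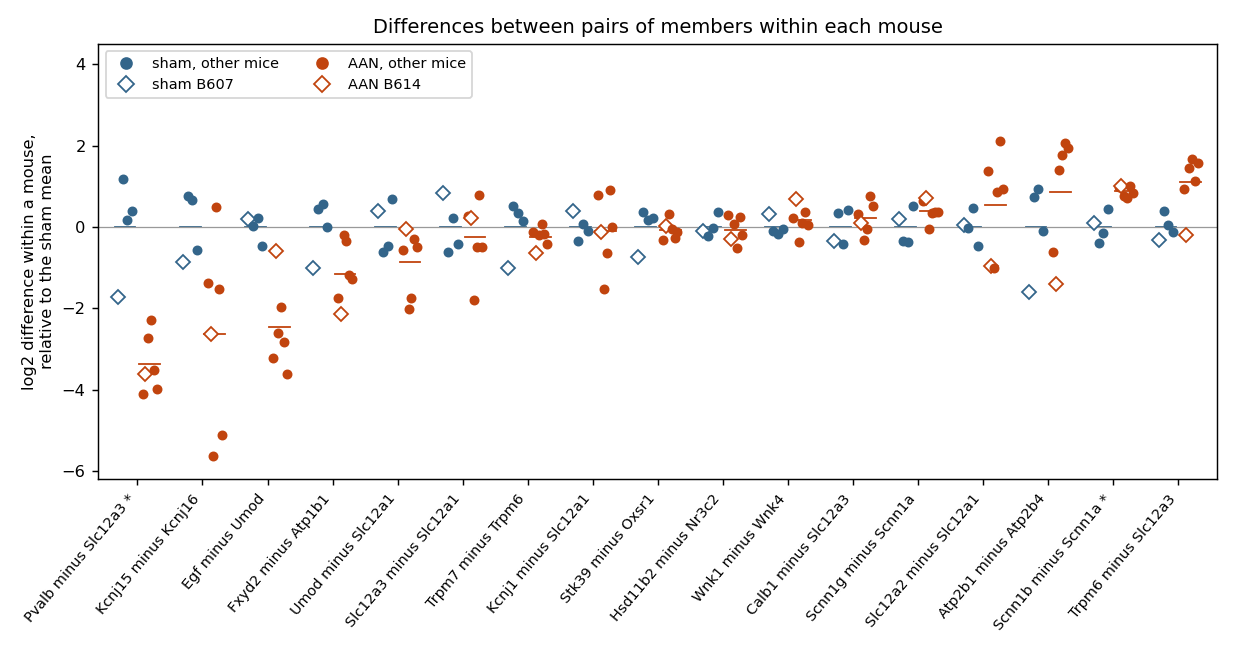
Log2 difference between the 2 members of each of 17 pairs in every mouse, relative to the sham mean of the pair, with lines at the group means, open diamonds for sham B607 and AAN B614, and an asterisk where the adjusted exact permutation p was at most 0.05. All 6 AAN mice lie below all 4 sham mice for Pvalb minus Slc12a3 and Egf minus Umod, and above them for Scnn1b minus Scnn1a.

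Among 24 further genes of the same pathways, 22 could be tested (Wnk3 and Kcna1 were under the filter), 2 rose (against 35.8% of all genes) and 2 fell (against 3.43%). Cldn10, a tight junction protein listed here with the thick limb partners, was at 44.3 ± 9.27 in sham mice and 18.3 ± 5.31 FPKM in AAN mice (-1.29, SE 0.23, adjusted p = 0.000485). Its value covers 3 transcripts together, and the segments they came from were not told apart. Pcbd1, an enzyme of tetrahydrobiopterin recycling, was at 391 ± 74.2 in sham mice and 166 ± 27.3 FPKM in AAN mice (-1.23, SE 0.18, adjusted p = 0.00013). The magnesium transporters Slc41a1 and Slc41a3 rose: Slc41a1 was at 2.79 ± 1.52 in sham mice and 6.87 ± 2.40 FPKM in AAN mice (1.34, SE 0.33, adjusted p = 0.00401) and Slc41a3 at 1.17 ± 0.432 in sham mice and 2.77 ± 0.676 FPKM in AAN mice (1.22, SE 0.27, adjusted p = 0.00201). After the median of ratios neither was called higher, and 9 of the 22 were called lower (against 10.5% of all genes), Cldn10 and Pcbd1 among them. By role, 1 of 7 thick limb partners fell and 2 of 4 magnesium partners rose and 1 fell. By limma 0 of 4 WNK cascade partners, 0 of 3 calcium partners and 0 of 4 sodium channel partners were called, where 1, 1 and 2 had an unadjusted p under 0.05. Without a fold limit 10 of the 22 passed the adjusted p, against 61.4% of all genes. The median log2 fold change of the 22 was 0.029.

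Markers of other cells moved with the groups, and their part in the results above was not tested. The counts of markers below stand against 35.8% of all genes called higher and 3.43% called lower as deposited. After the median of ratios 10.5% of all genes were called lower. In bulk tissue, fewer cells of a type and less RNA per cell cannot be told apart. Proximal tubule markers, summed over 10 genes, ran from 3250.1 to 5729.99 in sham mice and 747 to 2743 FPKM in AAN mice, with 7 of 10 called lower. B614 had 2743 FPKM for this sum against 747 to 1077 in the other AAN mice, and B607 was the highest sham mouse. Injured tubule markers summed to 1.39 to 2.12 in sham mice and 113 to 337 FPKM in AAN mice (6 of 6 called higher, with Havcr1 and Krt20 at 0 in sham B634). Leukocyte markers summed to 19.9 to 33.5 in sham mice and 275 to 977 FPKM in AAN mice (8 of 8 higher) and fibroblast markers to 15.6 to 21.4 in sham mice and 113 to 259.6 FPKM in AAN mice (6 of 6 higher). In all 3 lists B614 was the lowest AAN mouse. Inner medulla markers, which a cortex sample should hold little of, summed to 23.1 to 64.4 in sham mice and 82.6 to 267 FPKM in AAN mice, with 3 of 4 called higher. Most of that sum was Cryab, which is also induced by stress, at 21.5 to 62.3 in sham mice and 79.9 to 261 FPKM in AAN mice. The urea transporter Slc14a2, which is more specific, was at 0 in 3 sham mice and at 0.206 to 1.72 FPKM in AAN mice, highest in B630. The sums of collecting duct and other lists moved less, but single genes did not all follow them. Aqp3 was at 23.4 to 71.1 in sham mice and 6.32 to 20.9 FPKM in AAN mice other than B614 (65.2 FPKM). Slc26a4 was at 19.5 to 38.3 in sham mice and 6.41 to 11.2 FPKM in the same AAN mice (B614 45.2 FPKM). Fxyd4 went the other way, at 2.99 to 7.05 in sham and 4.995 to 13.4 FPKM in AAN mice. After the median of ratios 2 of 5 intercalated cell markers were called lower. Intercalated cell markers summed to 66.7 to 110.4 in sham mice and 55.5 to 157 FPKM in AAN mice (1 of 5 lower), principal cell markers, of which Hsd11b2 is a member above, to 215 to 319 in sham mice and 142 to 351 FPKM in AAN mice (0 of 5 called by limma, 2 at an unadjusted p under 0.05, and 3 lower after the median of ratios), endothelial markers to 29.3 to 47.9 in sham mice and 47.4 to 65.3 FPKM in AAN mice (0 of 6 called by limma, 4 at an unadjusted p under 0.05) and podocyte markers to 43.1 to 83.7 in sham mice and 47.5 to 126 FPKM in AAN mice (1 of 5 higher).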

How the data were processed

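RNA of the kidney cortex of 4 sham and 6 AAN mice was sequenced in paired-end libraries. The authors filtered the reads, aligned them to GRCm38.p4 with Hisat2 and deposited 1 FPKM value per gene and mouse from Stringtie, without fragment counts. FPKM is a share of the library, so a change in abundant genes moves all others. Strand use is not given in the sources used here. The edgeR results of the study were not used here.

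Symbols and positions came from GENCODE mouse release 21 (GRCm38), and 21665 of 21792 genes had one. Genes whose mean reached 0.1 FPKM entered limma 3.58.1 in R 4.3.3 (lmFit and a robust eBayes with trend) on log2(FPKM + 0.1), on which scale the fold change of low genes is understated. P-values were two-sided and adjusted by Benjamini-Hochberg over all 17129 genes. To be called, a gene needed a 2-fold change and an adjusted p no greater than 0.05. The fit was checked on simulated data. P-values measure the spread between these mice. Means are given with SDs over 4 sham and 6 AAN mice.

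Pairs of members were compared within mice by exact permutation over 210 assignments. Depth came from low values of genes with 1 transcript, of which 95.5% to 97.2% were whole fragments (tolerance 0.05). Fragments of genes with several transcripts are upper limits from the exonic length and cover counting error only. Promoters came from RefSeq. The members, lists, pairs and tests were chosen with earlier results of these data known. All members are named with levels, and values of every mouse are given for called members and for members of pairs that passed. Of the further pathway genes, 1 is not reported here. Alternatives are listed in the closing section. Python 3.11.15, pandas 2.3.3, numpy 2.4.6, scipy 1.17.1 and matplotlib 3.10.9 were used.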

Additional observations from a re-analysis of the deposited data

Results flagged for a closer look

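For each of the 40 members and 17 pairs, 1 mouse that lay far from the others of its group was searched for, as a gap to the nearest mouse, divided by the group's range, above Dixon's 95% value. Of 114 groups of values, 21 held such a mouse. About 1 in 20 (5.7) would do so if the groups were independent and their values normally distributed. Members measured in the same library are not independent, so the 21 cannot be judged against 5.7. The mouse was AAN B614 in 16 of the 21 groups and sham B607 in the other 5, all of them single members and 0 of them pairs. Members were searched in FPKM and pairs as log2 differences, which are unlike scales. AAN B614 lay above the other 5 AAN mice in FPKM for the thick limb members Kcnj1 (114 against 21.96 to 54.8), Bsnd (39.5 against 10.2 to 15.2), Umod (1719 against 147 to 397), Egf (71.9 against 1.46 to 3.996) and Casr (12.6 against 0.744 to 1.81). Of the basolateral channels it was Kcnj10 (29.04 against 5.49 to 11.5), and of the distal convoluted tubule and its cascade Slc12a3 (465 against 77.9 to 124), Pvalb (5.21 against 0.654 to 2.12), Wnk1 (16.6 against 6.41 to 8.12) and Klhl3 (12.8 against 1.40 to 2.19). The rest were the magnesium and calcium members Cnnm2 (16.7 against 6.74 to 9.56), Calb1 (167 against 25.3 to 51.7) and Slc8a1 (26.5 against 1.37 to 2.86) and the ENaC subunits Scnn1a (15.4 against 5.80 to 8.05), Scnn1b (35.4 against 10.8 to 17.7) and Scnn1g (40.2 against 11.8 to 19.5). Sham B607 lay above the other 3 sham mice in FPKM for Kcnj16 (10.4 against 1.52 to 2.73), Trpm6 (4.23 against 1.69 to 2.01), Slc8a1 (23.3 against 0.946 to 2.71) and Atp2b4 (2.10 against 0.130 to 0.315), and below them for Ppp1r1a (79.7 against 127 to 134). What set these mice apart was not tested.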

How the results depend on the processing

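Members and counts of genes were recomputed under 21 alternatives (20 for Atp2b4 and Nr3c2, which are under a mean of 1 FPKM), and counts also without a fold limit: pseudocounts, filters, rescalings, limma without trend and robust, each mouse left out, mice with B tags alone and, chosen after seeing the data, the mice without B607 and B614. Pairs were recomputed under 15, with no filter or rescaling, and with the smaller tail doubled, also chosen after seeing the data. The 2 members higher in AAN mice became 1 after the median of ratios and 1 after the quantiles were set equal, 6 after scaling to the same total, 6 without a fold limit and 2 to 4 with each mouse left out (4 without B607, which added Trpv5 and Oxsr1). The 6 lower became 11 after the median of ratios and 3 after scaling to the same total. Leaving out each mouse gave 5 to 8. Of all genes, 6126 were higher as deposited, 2909 when the pseudocount was 1, 4025 when the mean had to reach 1 FPKM, 3266 by the median of ratios, 2232 by equal quantiles and 9482 with no fold limit. Of the lower genes there were 588 as deposited, 1797 by the median of ratios, 2157 by equal quantiles, 332 by the same total and 1027 with no fold limit. Rescaling changes the level that every gene is set against. The 2 pairs that passed became 0 with the smaller tail doubled, 0 with B tags alone, 0 without B607 and B614, and 0 to 4 with each mouse left out (4 without B614). With fewer mice the smallest p is larger (0.0179 with B tags alone or without B607 and B614), and a pair can then pass only where several others reach it. Across members, 743 values kept their direction and side of the limits, 16 came to pass, 9 no longer passed, and 70 changed sign, in members not called. Across pairs 217 kept both, 2 came to pass, 24 no longer passed and 12 changed sign. Signs changed with a pseudocount of 1, Slc8a1 -0.033 and Hsd11b2 minus Nr3c2 0.073. After the median of ratios, Ptger3 -0.66, Sostdc1 -0.49, Slc12a2 -0.37, Slc12a7 -0.70, Wnk1 -0.51, Wnk4 -0.69, Trpm6 -0.060, Trpm7 -0.32, Slc8a1 -0.70, Scnn1b -0.25, Scnn1g -0.74, Nr3c2 -0.38, Hsd11b2 -0.53, Nedd4l -0.43 and Atp1b1 -0.73. After quantile normalization, Ptger3 -0.87, Sostdc1 -0.069, Slc12a2 -0.38, Slc12a7 -0.31, Wnk1 -0.43, Wnk4 -0.33, Stk39 -0.091, Trpm6 -0.23, Trpm7 -0.28, Slc8a1 -0.86, Atp2b4 -0.62, Scnn1b -0.022, Scnn1g -0.46, Nr3c2 -0.92, Nedd4l -0.26 and Atp1b1 -0.096. After scaling to the same total, Slc12a1 0.19, Kcnj1 0.093, Cnnm2 0.19, Calb1 0.16 and Sgk1 0.29. With B tags alone, Slc12a1 0.047, Slc8a1 -0.0039 and Stk39 minus Oxsr1 0.053. Without B607 and B614, chosen after seeing the data, Ptger3 -0.015, Scnn1g -0.016, Sgk1 0.020 and Kcnj1 minus Slc12a1 0.036. With each mouse left out in turn, the ranges that crossed 0 were Slc12a1 -0.46 to 0.14, Casr -0.998 to 0.11, Ptger3 -0.11 to 0.31, Slc12a7 -0.10 to 0.26, Wnk4 -0.038 to 0.20, Cnnm2 -0.35 to 0.085, Calb1 -0.57 to 0.069, Slc8a1 -0.56 to 0.97, Scnn1g -0.23 to 0.23, Sgk1 -0.15 to 0.079, Atp1b1 -0.19 to 0.25, Kcnj1 minus Slc12a1 -0.30 to 0.19, Slc12a3 minus Slc12a1 -0.46 to 0.060, Stk39 minus Oxsr1 -0.32 to 0.053 and Hsd11b2 minus Nr3c2 -0.14 to 0.059. The log2 values are AAN minus sham, and the cause of a change was not tested. No paired analysis was possible because the groups share no mouse tag and the labels give no batch. Depth limits the low members: Pvalb and Ppp1r1b in AAN mice and Nr3c2 in both groups rest on at most 91.7 fragments a mouse on average. Atp2b4 averages at most 141 fragments in sham and 213 in AAN mice, but B607, B614 and A483 carry these means. In the other mice it was at 0.130 to 0.315 FPKM and is limited by depth as well.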
